A study of Homo sapiens with 2 samples.

Results

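The genes described here encode the cytosolic translation initiation and elongation factors, with the cytoplasmic poly(A)-binding proteins, in Huh7 cells. They were chosen by symbol: every gene whose platform symbol begins with EIF or EEF and a digit, or with PABPC, and that had a value on both arrays, leaving out the Argonaute symbols of the EIF2C series, EIF2AK2 and pseudogenes. This gave 65 of the 11579 named genes, read by 91 probes. EIF4EBP1, EIF4EBP2 and EIF4EBP3 end in P and a digit as pseudogene symbols do, but are protein-coding and were kept. The symbol rule also took in 4 methyltransferases that modify elongation factors. Where several probes read 1 gene, the brightest by its mean over the arrays gives the value unless another is named.

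Huh7 is an established human hepatocellular carcinoma line. Cells infected with a lentivirus for a hairpin RNA that targets CD133 (shCD133) were set against cells infected with the lentiviral vector (vector), each read on 1 Illumina bead array. CD133, a surface glycoprotein that marks liver cancer stem cells, is the product of PROM1, and the series concerns its control by STAT3. With 1 array per group there is no replicate error and no test. Differences are log2 values of shCD133 minus vector and describe these arrays only, and a gene is counted as different from a size of 2-fold, a log2 difference of 1.

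PROM1, the target of the hairpin, had a log2 intensity of 10.83 with shCD133 and 13.58 with the vector. Over all named genes the median difference was 0.11, so small positive values below lie near the median gene. Of the hepatocyte and hepatoma markers 9 of 10 had a value, with log2 levels from 11.99 to 15.47 with shCD133 and from 11.65 to 15.48 with the vector. APOA2, at 12.97 with shCD133 and 14.78 with the vector (-1.81), and FGB, at 12.47 with shCD133 and 13.80 with the vector (-1.32), were at least 2-fold lower, 22.2% of these 9 against 8.26% of all named genes. APOA1 stood at 12.30 with shCD133 and 11.67 with the vector, and TTR at 11.99 with shCD133 and 11.65 with the vector. All 6 fibroblast markers had a value, from 7.25 to 13.45 with shCD133 and from 7.22 to 13.46 with the vector, and none was 2-fold different. COL1A2 stood at 12.50 with shCD133 and 11.55 with the vector, COL1A1 at 8.52 with shCD133 and 7.77 with the vector, and PDGFRA at 8.263 with shCD133 and 8.998 with the vector. DCN stood at 7.51 with shCD133 and 7.44 with the vector, and LUM, a fibroblast proteoglycan, at 13.45 with shCD133 and 13.46 with the vector. Of 6 leukocyte markers 2 had a value: CD14 stood at 9.92 with shCD133 and 8.32 with the vector, and CD68 at 9.53 with shCD133 and 9.62 with the vector. Of 5 endothelial markers PECAM1 alone had a value, 7.48 with shCD133 and 7.64 with the vector. The part of these markers in the results was not tested.

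Translation of most messenger RNAs starts when eIF2, loaded with GTP, brings the initiator tRNA to the small ribosomal subunit, on which eIF1, eIF1A, eIF3 and eIF5 also sit. The complex eIF4F (the cap-binding protein eIF4E, the scaffold eIF4G and the helicase eIF4A) recruits this subunit to the capped end of the message, and poly(A)-binding protein links the tail to eIF4G. eIF2B recharges eIF2 with GTP, and kinases that phosphorylate eIF2 block that step under stress, in what is called the integrated stress response. Elongation then runs on eEF1A, which delivers aminoacyl-tRNAs, and eEF2, which moves the ribosome along. Many messages of this machinery begin with a 5′ terminal oligopyrimidine (TOP) tract, through which mTOR signalling controls their translation.

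The first bases of 5 of these genes are shown. Starts with a pyrimidine run occur both among the genes that were lower with shCD133 and among those that were not. EIF2S3 has such a run but is not among the known TOP genes listed below. Each line runs 5′ to 3′ over 30 bases, 10 before the RefSeq transcript start and 20 from it, on GRCh38.p14. Capitals mark an unbroken run of at least 5 pyrimidines that begins with C at the start itself. EIF4G2 has 2 annotated starts, neither with such a run.
EIF2S3 (chrX:24054946-24054975, plus strand): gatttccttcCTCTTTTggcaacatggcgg
EIF4B (chr12:53006446-53006475, plus strand): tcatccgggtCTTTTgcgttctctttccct
EEF1A1 (chr6:73521013-73521042, minus strand): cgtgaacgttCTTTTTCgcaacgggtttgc
EEF2 (chr19:3985444-3985473, minus strand): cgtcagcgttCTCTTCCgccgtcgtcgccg
EIF4G2, one start (chr11:10807977-10808006, minus strand): tgtcggaagcacttccctaacttgcgcctg
EIF4G2, the other start (chr11:10808907-10808936, minus strand): acgccttagcgccagcagtgagtcggagct

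Across the 65 genes, 5 were at least 2-fold lower with shCD133 and 1 was at least 2-fold higher, while 59 lay between. The lower ones were EIF4G2, EIF2S3, EIF4B, EIF2AK4 and EIF2S2, and the higher one was EIF4EBP1. They make up 7.69% and 1.54% of the translation factor genes, against 8.26% and 2.08% of all named genes, so neither share stands away from the background. The median difference was 0.03, against 0.11 for all named genes. Of the 65 genes 31 lay below 0, 33 above and EIF4A1 at 0, against 40.7% of all named genes below 0 and 59.2% above. In all, 47 of the 65 differed by less than 0.5, but the share of all named genes within that size was not counted. At a size of 1.5-fold, 14 (21.5%) were lower and 4 (6.15%) higher, against 16.3% and 12.3% of all named genes.

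**Figure D1:**
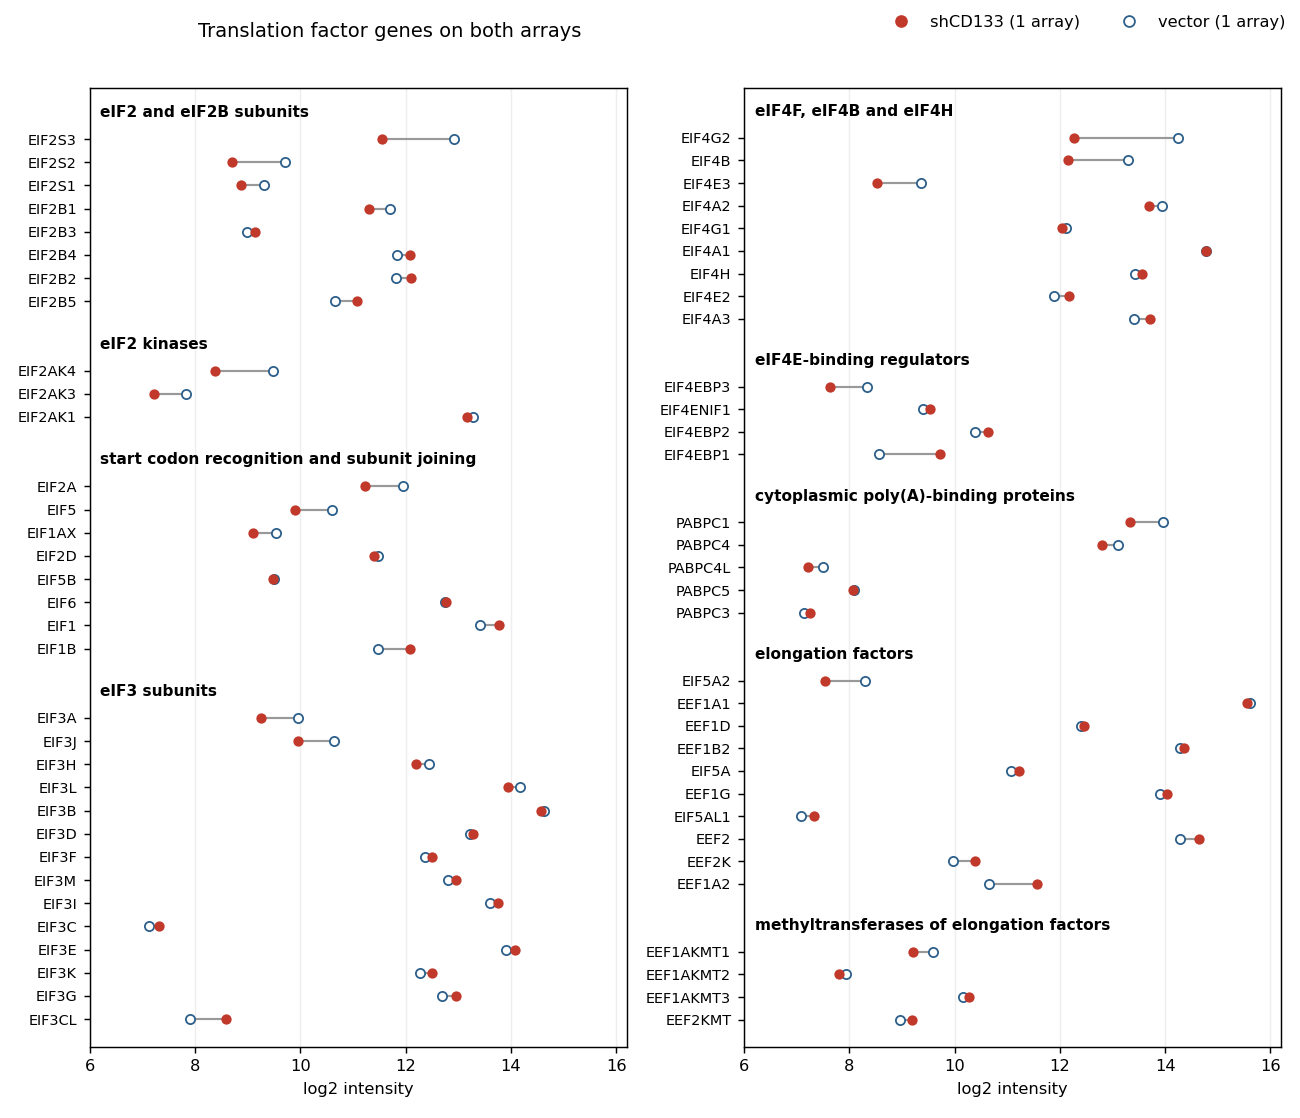
Log2 intensity of the 65 translation factor genes, grouped by role and ordered by difference within a role; filled red points are the shCD133 array, open blue points the vector array, and a line joins the values of a gene. EIF4G2 has the longest line, with 12.27 on the shCD133 array and 14.25 on the vector array, and most other pairs of points touch or nearly touch.

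eIF2 is the trimer that carries the initiator tRNA, and all 3 of its subunits were lower with shCD133. The difference was at least 2-fold in 2 of them (66.7%, against 8.26% of all named genes). EIF2S3, the gamma subunit that binds GTP and the tRNA, had a log2 intensity of 11.56 with shCD133 and 12.91 with the vector, a difference of -1.35 (2.56-fold lower). EIF2S2, the beta subunit, stood at 8.70 with shCD133 and 9.71 with the vector, a difference of -1.01 that lies just past the threshold. EIF2S1, the alpha subunit and the target of the stress kinases, stood at 8.87 with shCD133 and 9.32 with the vector, a difference of -0.45. Each of the 3 was read by 1 probe, so no second probe bears on these values.

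The 5 subunits of eIF2B, the exchange factor that reloads eIF2, had smaller differences, and 4 of them were above 0. EIF2B5, the catalytic epsilon subunit, had a log2 intensity of 11.09 with shCD133 and 10.67 with the vector, the largest positive difference of the 5 at 0.42. EIF2B1, the alpha subunit, was the exception, at 11.31 with shCD133 and 11.71 with the vector (-0.40). EIF2B2 differed by 0.29, EIF2B4 by 0.25 on both of its probes and EIF2B3 by 0.15. The median was -1.01 over the eIF2 subunits and 0.25 over the eIF2B subunits, against 0.11 for all named genes. The eIF2B genes had a median length of 9.95 kb, and named genes of at most 19.2 kb also had a median difference of 0.25. With the median of genes of like length subtracted, EIF2B1 to EIF2B5 stood at -0.64, 0.02, 0.32, -0.04 and 0.16. EIF2S1, EIF2S2 and EIF2S3 then stood at -0.61, -1.18 and -1.52.

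The eIF2 kinases in the set were all below 0, against 40.7% of all named genes. EIF2AK4 (GCN2), the kinase that senses uncharged tRNA, had a log2 intensity of 8.38 with shCD133 and 9.48 with the vector, a difference of -1.10 (2.14-fold lower), or -0.94 with the median of genes of like length subtracted. EIF2AK3 (PERK), the kinase of the endoplasmic reticulum, stood at 7.22 with shCD133 and 7.84 with the vector, a difference of -0.61. Both EIF2AK3 values lie near the lowest value in the data, 6.65, where differences are compressed. EIF2AK1 (HRI), the haem-regulated kinase, was bright, at 13.17 with shCD133 and 13.29 with the vector (-0.12), and its dimmer probe differed by -0.71. EIF2AK2 (PKR), which the symbol rule leaves out, stood at 8.71 with shCD133 and 10.00 with the vector, a difference of -1.29. GCN2, PERK and PKR are encoded by long genes, of 101.5, 71.4 and 57.8 kb.

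Factors that choose the start codon or join the subunits had 8 genes, none of them 2-fold different, with a median of -0.05. EIF2A, a proposed alternative carrier of initiator tRNA, had a log2 intensity of 11.23 with shCD133 and 11.95 with the vector, a difference of -0.72. EIF5, which makes eIF2 hydrolyse its GTP, stood at 9.89 with shCD133 and 10.61 with the vector (-0.71), and its other probes differed by -0.65 and -0.30. EIF1B, a close relative of the start-codon factor eIF1, went the other way, at 12.08 with shCD133 and 11.48 with the vector, a difference of 0.59. EIF1 itself differed by 0.36 and EIF1AX, the X-linked eIF1A gene, by -0.43 on both probes. EIF2D, EIF5B and the ribosomal anti-association factor EIF6 differed by no more than 0.07 in size.

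eIF3, the large scaffold on the small ribosomal subunit, was spread narrowly. Its 14 genes had a median difference of 0.14, with 9 above 0 and none 2-fold different. Of all named genes 59.2% were above 0, at a median of 0.11. EIF3A, the largest subunit, had a log2 intensity of 9.25 with shCD133 and 9.96 with the vector, a difference of -0.70. EIF3J, the loosely bound subunit, stood at 9.95 with shCD133 and 10.64 with the vector (-0.69). These were the only eIF3 genes at least 1.5-fold lower. EIF3CL was the only one at least 1.5-fold higher, at 8.58 with shCD133 and 7.91 with the vector (0.67). It is nearly identical to EIF3C, which differed by 0.18 at levels of 7.31 with shCD133 and 7.13 with the vector, so the value of either is uncertain.

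The other 10 core and peripheral eIF3 genes with values above a level of 12 lay between -0.25 and 0.27. EIF3H (-0.25) and EIF3L (-0.24) were at the lower end, and EIF3K (0.23) and EIF3G (0.27) at the upper end. EIF3B, the subunit that anchors EIF3G and EIF3I, was the brightest, at 14.57 with shCD133 and 14.63 with the vector. Its 3 probes ranged from -0.06 to 0.01. EIF3E, known also as INT6, differed by 0.18, EIF3M by 0.14 and EIF3D, which can bind the cap of some messages, by 0.06.

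The largest difference of the whole set lay in the eIF4G family. EIF4G2 (DAP5), an eIF4G relative that lacks the eIF4E-binding part and drives cap-independent and alternative initiation, had a log2 intensity of 12.27 with shCD133 and 14.25 with the vector. The difference was -1.98, or 3.93-fold lower, and the unlogged shCD133 value was 25.4% of the vector value. Its other probes stood at 12.32 with shCD133 and 14.17 with the vector (-1.85), and at 9.78 with shCD133 and 11.99 with the vector (-2.22). All 3 probes were more than 2-fold lower. Among the 1234 named genes with a mean log2 level of at least 12, only 2 had a lower difference than EIF4G2. EIF4G1, the canonical scaffold, stood at 12.04 with shCD133 and 12.12 with the vector (-0.08), and its other probe at 11.81 on both arrays.

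EIF4B, a cofactor of the eIF4A helicase and a target of the S6 kinases, had a log2 intensity of 12.16 with shCD133 and 13.30 with the vector, a difference of -1.13 (2.19-fold lower) on its only probe. EIF4H, the related cofactor, differed by 0.14, and by 0.16 on its other probe. The helicase EIF4A1 stood at 14.78 on both arrays, its close relative EIF4A2 differed by -0.26, and EIF4A3, the exon junction helicase, by 0.31. Among the cap-binding proteins, EIF4E3 stood at 8.52 with shCD133 and 9.36 with the vector (-0.84), and its dimmer probe differed by -0.71. EIF4E2, which represses translation when bound to the cap, differed by 0.28. None of the 5 probes for EIF4E itself had a value on the arrays, so the main cap-binding protein is not described here.

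EIF4EBP1 (4E-BP1), which binds eIF4E and keeps it from eIF4G until mTOR phosphorylates it, was the only 2-fold higher gene. Its log2 intensity was 9.71 with shCD133 and 8.56 with the vector, a difference of 1.15 (2.23-fold higher) on 1 probe. With the median of genes of like level subtracted the difference was 0.94, under the threshold. Its relative EIF4EBP2 stood at 10.64 with shCD133 and 10.39 with the vector, a smaller difference on the same side (0.25). EIF4EBP3 lay on the other side, at 7.63 with shCD133 and 8.34 with the vector (-0.70), both near the dim end. The readthrough gene ANKHD1-EIF4EBP3 differed by -0.80, and whether the EIF4EBP3 probe also reads it was not tested. EIF4ENIF1 (4E-T), which carries eIF4E into the nucleus and to processing bodies, differed by 0.14. In mouse pancreatic beta cells Eif4ebp1 is a known target of ATF4. ATF4 here stood at 13.75 with shCD133 and 12.87 with the vector (0.88), with its 3 probes from 0.21 to 1.03.

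**Figure D2:**
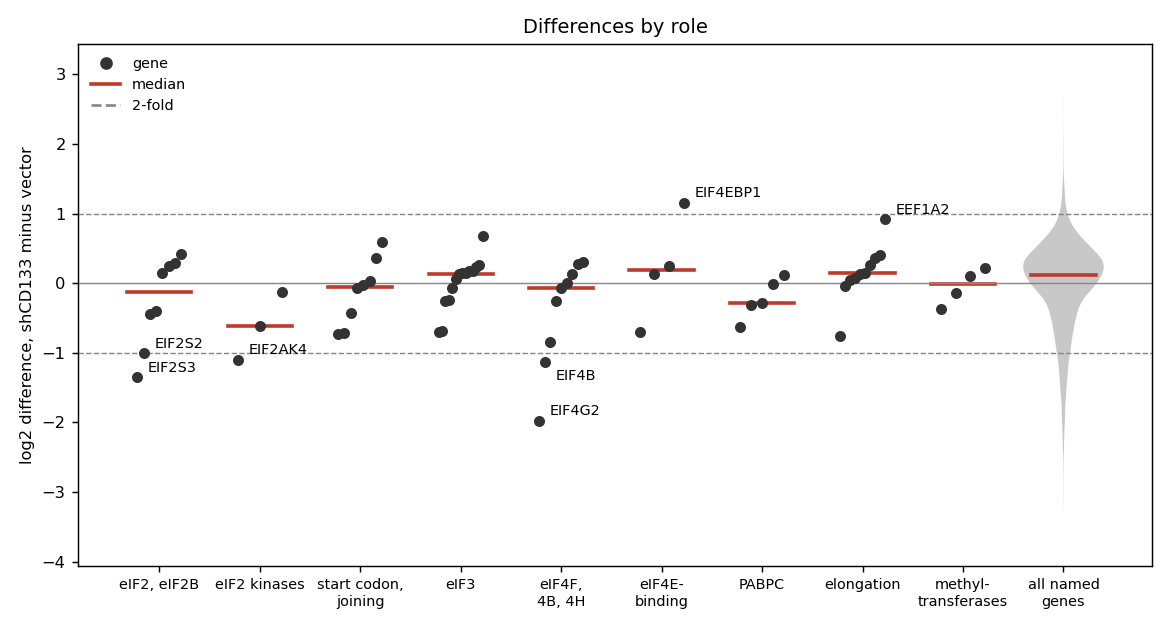
Log2 difference (shCD133 minus vector) of each translation factor gene by role, with the median of the role as a red bar and the distribution of all 11579 named genes in grey at the right. The role medians lie between -0.61 (eIF2 kinases) and 0.19 (eIF4E-binding regulators), and the genes past a 2-fold difference are EIF4G2, EIF2S3, EIF4B, EIF2AK4, EIF2S2 and EIF4EBP1.

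Cytoplasmic poly(A)-binding proteins coat the message tail and contact eIF4G, and their 5 genes had a median difference of -0.28. PABPC1, the main form, had a log2 intensity of 13.33 with shCD133 and 13.97 with the vector, a difference of -0.63, but its dimmer probe differed by -0.16. PABPC4, the inducible form, stood at 12.79 with shCD133 and 13.11 with the vector (-0.32). PABPC4L, PABPC5 and PABPC3 were dim, with levels from 7.21 to 8.08 with shCD133 and from 7.14 to 8.08 with the vector. PABPC4L stood at 7.21 with shCD133 and 7.49 with the vector (-0.28), PABPC5 differed by less than 0.01 in size and PABPC3 by 0.11. PABPC3 is an intronless relative of PABPC1, and the probes may not tell the pair apart.

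The elongation factors were the role group with the largest share of genes on the positive side, 8 of 10, against 59.2% of all named genes. Their median difference was 0.14, against 0.11 for all named genes. They had a median length of 10.2 kb. Named genes of at most 19.2 kb had a median difference of 0.25, with 24.4% below 0, against 2 of the 10 elongation factors. EEF1A1, which delivers aminoacyl-tRNAs and is the brightest gene of the set, had a log2 intensity of 15.56 with shCD133 and 15.61 with the vector. Both lie near the highest value in the data, 15.61, where a difference could be limited by the range of the scale. EEF1A2, its relative of muscle and neurons, stood at 11.57 with shCD133 and 10.65 with the vector, a difference of 0.92 (1.89-fold higher) on 1 probe. EEF2, the translocase, stood at 14.64 with shCD133 and 14.28 with the vector (0.36). EEF2K, the kinase that inhibits eEF2, stood at 10.38 with shCD133 and 9.98 with the vector (0.41).

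The exchange factor subunits that recharge eEF1A differed little: EEF1B2 by 0.07, EEF1D by 0.05 and EEF1G by 0.15. EIF5A, which helps the ribosome past proline stretches and carries hypusine, differed by 0.14. Its relative EIF5A2 was lower, at 7.54 with shCD133 and 8.30 with the vector (-0.76), both near the dim end. EIF5AL1, another near-identical relative, stood at 7.34 with shCD133 and 7.08 with the vector. Among the methyltransferases, EEF1AKMT1 stood at 9.21 with shCD133 and 9.58 with the vector (-0.37), and EEF2KMT at 9.19 with shCD133 and 8.97 with the vector (0.22). EEF1AKMT2 stood at 7.80 with shCD133 and 7.94 with the vector (-0.14), and EEF1AKMT3 differed by 0.11.

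Probes that read the same gene give the only measure of error here. Of the 18 translation factor genes with more than 1 probe, 16 had all probes on the same side of 0. The exceptions were EIF3B, and EIF4A1 with 1 probe at 0. From the brightest pair of probes of each gene, the SD of a difference per probe was 0.14 over these 18 genes and 0.33 over the 2907 named genes with more than 1 probe. The widest disagreement, that of a dimmer EEF1A1 probe, lies outside these pairs and so outside the SD. Over all genes the SD was 0.40 where the dimmer probe was under a level of 8 and 0.13 where it was at 12 or above. EIF4G2, EIF2S3, EIF4B, EIF2AK4, EIF2S2 and EIF4EBP1 pass each of these SDs by choice, as they were picked from a log2 difference of 1. Of these genes EIF4G2 alone has more than 1 probe, so the SDs add nothing about the error of the others. Of the eIF3 genes 11 of 14, and of the elongation factors 6 of 10, differed by less than the SD over all genes. The share of all named genes within that SD was not counted, so these counts describe no trait of either group. That SD rests mostly on dimmer probes, with 159 of the 2907 genes at 12 or above. Most eIF3 genes above a level of 12 exceed the SD of 0.13 there, such as EIF3G (0.27) and EIF3H (-0.25). EIF3B (-0.06) and EIF3D (0.06) do not. These SDs leave out variation between cultures.

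EEF1A1 was the one gene whose probes disagreed strongly. Of its 4 probes, 3 stood between 15.43 and 15.56 with shCD133 and between 15.54 and 15.61 with the vector, and differed by -0.11 to -0.03. The other, annotated to the same transcript, stood at 10.15 with shCD133 and 12.44 with the vector, a difference of -2.28. It was singled out after its value was seen.

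**Figure D3:**
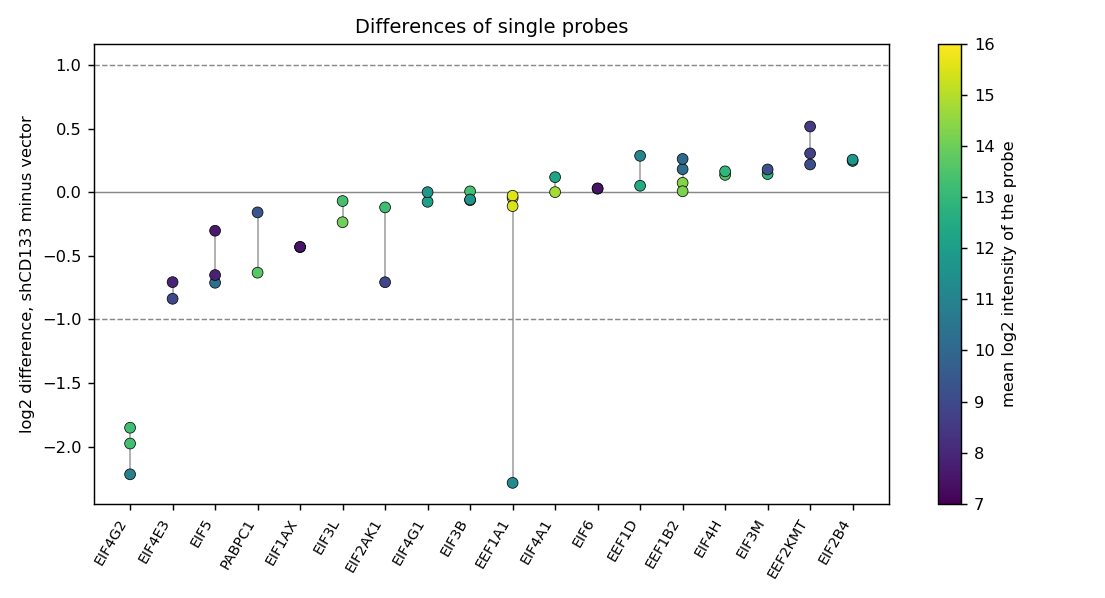
Log2 difference (shCD133 minus vector) of every probe for the 18 translation factor genes with more than 1 probe, coloured by the mean log2 intensity of the probe. The 3 EIF4G2 probes lie together between -2.22 and -1.85, and 1 of the 4 EEF1A1 probes lies at -2.28, far below the other EEF1A1 probes.

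The translation factor genes were brighter than most. Their median log2 level was 11.56 with shCD133 and 11.71 with the vector, against 9.19 with shCD133 and 9.23 with the vector for all named genes. Of the 65 genes 29 had a mean level of 12 or more. In that bright range 3 of 29 (10.3%) were at least 2-fold lower, namely EIF4G2, EIF2S3 and EIF4B, against 4.94% of the 1234 named genes there. Under a level of 12 the count was 2 of 36 (5.56%), against 8.65% of all named genes. With counts this small the shares are given as a description.

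**Figure D4:**
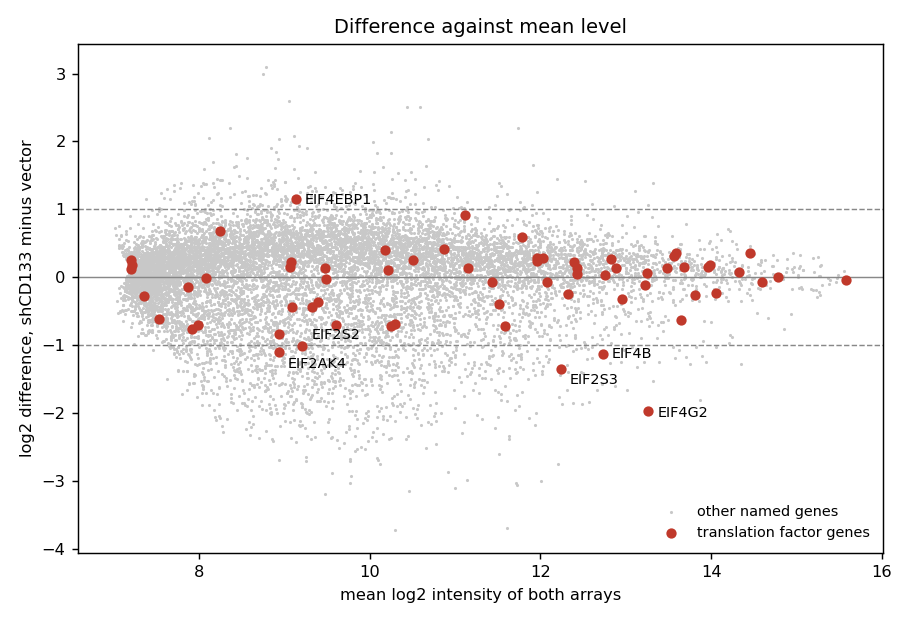
Log2 difference (shCD133 minus vector) against the mean log2 intensity of both arrays, with translation factor genes in red and the other named genes in grey. EIF4G2, EIF4B and EIF2S3 lie below the dense part of the cloud at levels above 12, where grey points spread less than at lower levels.

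Across all named genes longer genes tended to be lower with shCD133, and the translation factor genes followed the same order. Spearman's rho between genomic length and difference was -0.27 across the 65 genes and -0.34 across 11569 named genes, which share the same arrays and are not independent. The 32 translation factor genes longer than their median of 19.2 kb had a median difference of -0.13, with 21 (65.6%) below 0. All named genes in that length range had a median of -0.02, with 51.4% below 0. The 33 other translation factor genes had a median of 0.11, with 10 (30.3%) below 0. Named genes no longer than 19.2 kb had a median of 0.25, with 24.4% below 0. Of the longer translation factor genes 4 (12.5%) were at least 2-fold lower, against 12.2% of all named genes in that length range. Among the shorter ones EIF4G2 was the only one (3.03%, against 2.32%), and at 11.9 kb its difference was the eleventh lowest of 4577 named genes no longer than that median. The part of gene length in these differences was not tested.

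**Figure D5:**
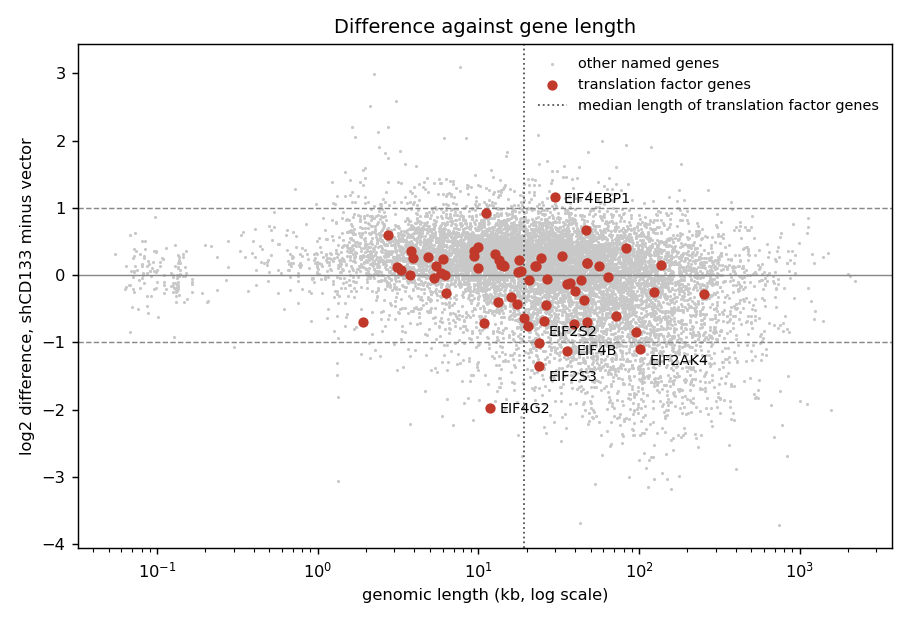
Log2 difference (shCD133 minus vector) against genomic length on a log axis, with translation factor genes in red, the other named genes in grey and the median length of the red points, 19.2 kb, as a dotted line. EIF2S2, EIF2S3, EIF4B and EIF2AK4 lie to the right of the line, and EIF4G2, at 11.9 kb, lies to its left.

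The translation factor messages known for a TOP start, the 10 genes EEF1A1, EEF1B2, EEF1D, EEF1G, EEF2, EIF3E, EIF3F, EIF3H, EIF4B and PABPC1, had a median difference of 0.06. EIF4B alone passed 2-fold, on the lower side (10.0%, against 8.26% of all named genes). The other 55 genes had a median of 0.00. TOP genes outside the set had 4 of 6 measured: NAP1L1, a histone chaperone, stood at 11.18 with shCD133 and 11.98 with the vector (-0.80), and HNRNPA1 at 9.15 with shCD133 and 9.33 with the vector (-0.17). TPT1 stood at 15.33 with shCD133 and 15.43 with the vector (-0.10), and VIM at 14.42 with shCD133 and 14.41 with the vector (0.01).

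RefSeq starts were matched for 48 of the 65 genes, and 12 (25.0%) had at least 1 start at a C followed by an unbroken pyrimidine run of 5 or more bases in all. The share was 7.43% of the 9356 named genes matched. Those 12 had a median difference of 0.01, and 2 of them, EIF2S3 and EIF4B, were at least 2-fold lower, while EEF1A1 and EEF2, shown above, were not. The 36 genes without such a start had a median of 0.01, and 2 of them, EIF4G2 and EIF2AK4, were at least 2-fold lower. Over all named genes matched, 8.49% of those with such a start and 8.64% of those without were at least 2-fold lower. EIF2S2 was not among the genes matched, nor were EEF1D, EIF3E, EIF3H and PABPC1 of the known TOP genes. EEF1G, another known TOP gene, counts among the 36 without such a start. EIF2S3 has such a start but is not among the known TOP genes listed above. The run length was chosen with the values known.

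Binding letters of stress and STAT factors were looked for in the same promoters, from 250 bases before to 50 after the start, on both strands. TGATGNAA, found at ATF4 target genes, occurred in 1 of 63 promoters of these genes (1.59%), that of EIF4E3, against 3.62% of all 35116 promoters. The promoter of EIF4EBP1 was not among those searched. The STAT letters TTCCNGGAA also occurred in 1 of 63 (1.59%), that of EIF3I, against 1.15% of all promoters. A match of letters is a description and not a binding site.

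Of the genes outside the set that control eIF2 or respond to it, 11 of 13 were measured. EIF2AK2 alone was at least 2-fold lower (9.09%, against 8.26% of all named genes). None was at least 2-fold higher (2.08% of all named genes), at a median of 0.01. Beside ATF4, TRIB3, a pseudokinase induced by ATF4, stood at 12.15 with shCD133 and 11.30 with the vector (0.86). PPP1CB, a catalytic subunit of the phosphatase that dephosphorylates eIF2, stood at 10.07 with shCD133 and 10.89 with the vector (-0.83). GCN1, the partner of GCN2, differed by 0.29.

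Genes listed here for the control of mTORC1 or eIF4F had 2 of 15 at least 2-fold lower and 1 higher, at a median of 0.22. These are 13.3% and 6.67%, against 8.26% and 2.08% of all named genes. DDIT4 (REDD1), a stress-induced inhibitor of mTORC1, stood at 11.85 with shCD133 and 9.34 with the vector (2.51). TSC1, a part of the complex that restrains mTORC1, stood at 8.39 with shCD133 and 10.05 with the vector (-1.66), but its 3 probes ranged from -1.66 to -0.09. RPS6KB1, the S6 kinase that phosphorylates EIF4B, stood at 9.20 with shCD133 and 10.23 with the vector (-1.02). PDCD4, an inhibitor of eIF4A, stood at 9.29 with shCD133 and 10.17 with the vector (-0.88), although its dimmer probe differed by -0.12.

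Other cytosolic translation factors had 1 of 18 at least 2-fold lower (5.56%, against 8.26% of all named genes). They had 0 higher (2.08% of all named genes), at a median of 0.09. DDX3X, an RNA helicase that helps scanning through structured leaders, stood at 11.31 with shCD133 and 12.74 with the vector (-1.43). DHX29, another scanning helicase, stood at 10.44 with shCD133 and 11.28 with the vector (-0.85). GTPBP2, a ribosome rescue factor, stood at 8.72 with shCD133 and 7.88 with the vector (0.84). DENR, a partner in ribosome recycling and reinitiation, stood at 11.22 with shCD133 and 11.99 with the vector (-0.77). The release factors GSPT1 (-0.76) and ETF1 (-0.70) were also below 0, and the dimmer ETF1 probe differed by -0.07.

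Mitochondrial translation factors had 2 of 10 at least 2-fold lower and none higher, at a median of 0.03. GFM1, the mitochondrial elongation factor G, stood at 9.59 with shCD133 and 10.83 with the vector (-1.24). MTIF2, the mitochondrial initiation factor, stood at 10.48 with shCD133 and 11.55 with the vector (-1.07). GUF1, a ribosome back-translocase, stood at 8.28 with shCD133 and 9.09 with the vector (-0.82). MTRFR, a rescue factor, stood at 9.48 with shCD133 and 8.99 with the vector (0.48). The bright mitochondrial elongation factor TUFM stood at 12.33 with shCD133 and 11.91 with the vector (0.42).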

How the data were processed

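The values were those the authors deposited as log2 intensities, 1 array per group. None of the sources used here states the log base, which was taken as 2 because the values span 6.65 to 15.6. GenomeStudio 2011.1 is named in the submitters' processing notes, with no role. The sorted values of both arrays differed by at most 0.000439, as after quantile normalization, which can hide a shift of most genes in 1 direction. Of 47323 probes, 19665 had a value on both arrays and 27658 on neither; the filter is not stated in the sources used here. A second table has 4 value columns that match neither sample and was not used. Probes were named from a platform annotation, and 15197 of the 15205 with 1 symbol were matched to RefSeq (GRCh38.p14), which gave the symbol and the genomic length, the span of the gene. Starts came from the RefSeq promoter table.

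The genes, role groups and lists were chosen with earlier results of these data known. Both array values are printed at least for 2-fold different genes, the 3 largest differences of each role and list genes past the threshold or among the 4 largest differences. Any gene of the set could be named, and other genes outside it were named after their values were seen. The number of arrays limits the precision. Python 3.11.15, pandas 2.3.3 and numpy 2.4.6 were used, and the counting was tested on simulated data.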

Additional observations from a re-analysis of the deposited data

How the results depend on the processing

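The count of translation factor genes at least 2-fold lower with shCD133, 5, was 9 with a constant background of 99.5 subtracted from the unlogged values (13.2% of all named genes, against 8.26%) and 14 at a 1.5-fold threshold (16.3%). It stayed between 4 and 6 with the mean over probes, centring on the median gene, a mean level of at least 8, or the trend with level or length removed. The count at least 2-fold higher, 1, was 2 with the background subtracted (6.19% of all named genes, against 2.08%), 4 at 1.5-fold (12.3%) and 0 with the level trend removed (1.19%), where EIF4EBP1 differed by 0.94. It was also 0 without EIF4EBP1 to EIF4EBP3, an alternative chosen after seeing the data. EIF2AK4 differed by -0.94 with the length trend removed, and the other single genes past 2-fold stayed past it under each alternative. Medians moved by less than the probe SD of 0.33, but that SD is for a single probe and does not measure the spread of a median. Some medians changed sign. Centring and both trend settings put the median of all named genes at 0 in place of 0.11, and there the median of the 65 genes was -0.09 after centring, -0.08 without the level trend and -0.17 without the length trend. Without the length trend eIF3 stood at -0.09 and elongation factors at -0.12. No paired analysis was possible because each group has 1 array. Without replicates, no depth or error beyond the disagreement between probes can be given, and differences at levels near the lowest value are compressed.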
